A study of Macaca fascicularis with 6 samples.

Results

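The 6 genes described here, NLRP5, OOEP, TLE6, KHDC3L, PADI6 and ZBED3, encode the core of the subcortical maternal complex of the oocyte. They were taken by symbol from a table of 28164 genes; all 6 were present once under these names, and all 6 passed the filter on low counts that left 15815 genes to test. They were read in 6 libraries of cynomolgus monkey (Macaca fascicularis) oocytes, 2 for each of 3 groups. GV oocytes are immature cells arrested in meiotic prophase that still have their large nucleus, the germinal vesicle. Oocytes of the IVM MII group had matured in vitro, and those of the IVO MII group in vivo, to metaphase of the second meiotic division. Per the labels every oocyte was wild type, untreated and stripped of its surrounding cells. How many oocytes and animals stand behind a library was not given in the sources used here, so the 2 libraries of a group may differ only technically, and p-values measure the spread between libraries.

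The subcortical maternal complex is a large protein assembly that lies under the plasma membrane of mammalian oocytes and early embryos. Its transcripts are made while the oocyte grows and its proteins persist into cleavage, for which several of them are required in mice. In women, inherited loss of several members is known to cause early embryo arrest or molar pregnancy. NLRP5, also called MATER, is an NLR-type scaffold protein, and TLE6 is a relative of the Groucho co-repressors that binds it. OOEP, also called FLOPED, and KHDC3L, the primate relative of FILIA, carry KH-like domains. PADI6 is an oocyte member of the peptidylarginine deiminases that is needed for the cytoplasmic lattices, fibres that store maternal proteins. ZBED3 is a BED zinc finger protein first known as a partner of axin and later placed in the complex.

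Transcripts of 4 core genes, NLRP5, OOEP, PADI6 and TLE6, were lower after maturation than in GV oocytes by both routes. KHDC3L was lower after maturation in vivo but not called after maturation in vitro, where its level overlapped that of GV oocytes. ZBED3, the least abundant of the 6, was called higher after maturation in vivo. This call, that of KHDC3L in vivo and that of TLE6 in vitro ended when certain single libraries were left out. IVM MII oocytes held more NLRP5, TLE6 and KHDC3L and less ZBED3 than IVO MII oocytes, and each of these 4 calls depended on single libraries. Levels are given as CPM (counts per 1000000 counts of a library, scaled by composition factors), as means ± SD of n = 2 libraries. Log2 fold changes carry their standard error from edgeR's quasi-likelihood test, and its p-values were adjusted over the 15815 tested genes by the method of Benjamini and Hochberg, with a threshold of 0.05.

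Library totals ran from 27707021 to 35515139 counts, so the lowest member count, 190 for ZBED3 in GV replicate 2, was well above the floor of 3 counts, which stood for 0.0695 to 0.116 CPM. All 11 oocyte markers on a list that included ZP3, GDF9 and DDX4 had counts in every library. Their summed level ran in the order of NLRP5 and TLE6 too, at 28495 to 33729 CPM in GV, 15232 to 17442 in the IVM MII libraries and 8206 to 10466 in the IVO MII libraries. Taken singly, the 11 markers did not share this direction. From GV, maturation in vitro brought 4 called falls and 2 called rises, and maturation in vivo 6 falls and 3 rises. Of all tested genes, 24.7% fell and 25.6% rose in vitro, and 30.5% fell and 28.1% rose in vivo. Taking IVO MII as the base, IVM MII had 4 called rises and 1 called fall, where 14.3% of all tested genes rose and 10.3% fell. Some of the calls of oocyte markers ended when a single library was left out. Of 18 cumulus and granulosa markers, 6 had no count in any library (AMHR2, FOXL2, HSD17B1, INHA, PTX3 and STAR). The summed level of the 18 was 240 to 269 CPM in GV, 219 to 356 in IVM MII and 264 to 329 in IVO MII, most of it SERPINE2. GREM1, a cumulus transcript, stood at 29.0 CPM in IVM MII against 3.97 in GV and 4.01 in IVO MII. INHBA, LHCGR and NR5A2 had counts in both GV libraries and no count in either IVM MII library. Of the 7 cumulus and granulosa markers tested, 3 were called higher and 1 lower in IVM MII than in GV. In IVO MII 1 was called higher and 1 lower than in GV. Between the MII groups 3 were higher and 0 lower in IVM MII, beside 14.3% and 10.3% of all tested genes. The 13 theca, stroma and endothelium markers summed to 331 to 390 CPM in GV, 155 to 163 in IVM MII and 90.9 to 95.6 in IVO MII, the same order as NLRP5 and TLE6. VWF alone accounted for 312, 103 and 43.9 CPM of this, while KDR, LUM and CYP17A1 had no count in any library. Taken singly, these markers did not share 1 direction either. Of the 6 tested, 1 was called higher and 1 lower in IVM MII than in GV, and 2 higher and 1 lower in IVO MII. PECAM1, an endothelial marker, was called higher by both routes (1.06 and 0.74 on the log2 scale). The rises ended when certain single libraries were left out. Of 7 blood markers, HBB and CD3E had no count in any library, and the list summed to 13.5 to 13.6 CPM in GV and 4.38 to 7.26 in the MII libraries. The part of other cells, and of the falling sum of oocyte markers, in the results below was not tested.

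The 5 members of the complex other than ZBED3 were all more abundant in GV replicate 2 than in replicate 1. The ratio ran from 1.32-fold for NLRP5 to 2.17-fold for PADI6. The 6 genes together took 0.541% and 0.774% of all counts in GV oocytes, 0.315% and 0.301% in IVM MII oocytes and 0.196% and 0.221% in IVO MII oocytes. The summed level thus fell into 3 ranges that did not overlap, with GV highest and IVO MII lowest. OOEP and KHDC3L held most of this sum in every library, so its order is not that of each member. Mean OOEP was lower in IVM MII than in IVO MII (742 and 1039 CPM), as was mean ZBED3 (6.85 and 13.9 CPM).

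**Figure D1:**
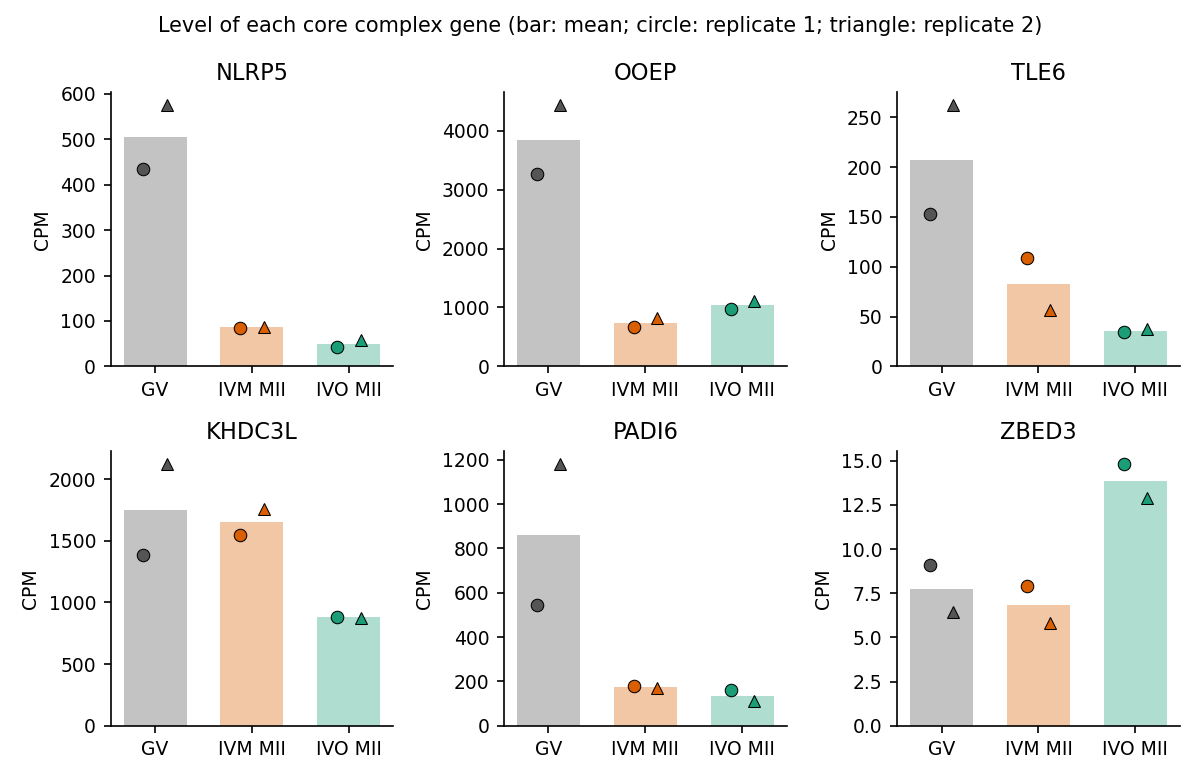
Level of each core gene in CPM, on a linear axis from 0 with its own scale in each panel; bars are means of 2 libraries, circles replicate 1 and triangles replicate 2. NLRP5, OOEP, TLE6 and PADI6 are highest in both GV libraries, KHDC3L is lowest in both IVO MII libraries, and ZBED3 is highest in both IVO MII libraries.

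NLRP5, the scaffold of the complex (macFas5 chromosome 19, 56847830 to 56881839, plus strand, 10 exons), stood at 435 and 575 CPM in the GV libraries, 85.1 and 86.7 in the IVM MII libraries, and 41.8 and 57.9 in the IVO MII libraries. The 3 ranges did not overlap, and the order was GV, IVM MII, IVO MII. From 505 ± 98.9 CPM in GV it fell 5.88-fold to 85.9 ± 1.11 in IVM MII (log2 fold change -2.56 ± 0.26, edgeR adjusted p = 1.67e-05). In IVO MII it fell 10.1-fold, to 49.8 ± 11.4 CPM (-3.34 ± 0.26, edgeR adjusted p = 2.41e-06). Of all tested genes, 4.85% had a lower log2 fold change between IVO MII and GV, and 7.44% between IVM MII and GV.

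TLE6 (chromosome 19, 2937727 to 2954924, plus strand, 17 exons) stood at 153 and 262 CPM in GV, 109 and 57.0 in the IVM MII libraries, and 34.1 and 37.4 in IVO MII. Its IVM MII libraries differed 1.92-fold, the widest gap between replicates of any member outside GV, but lay between the other groups without overlap. TLE6 fell 2.49-fold in IVM MII (-1.32 ± 0.33, edgeR adjusted p = 0.00587) and 5.81-fold in IVO MII (-2.54 ± 0.34, edgeR adjusted p = 8.32e-05). The fall in IVM MII was no longer called without GV replicate 2 (-0.87, edgeR adjusted p = 0.0624) or without IVM MII replicate 2 (-0.91, edgeR adjusted p = 0.0692). The fall in IVO MII kept its call without each of the 6 libraries in turn, at -2.87 to -2.09.

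OOEP, the most abundant member in GV oocytes (chromosome 4, 100555994 to 100557947, plus strand, 3 exons), stood at 3263 and 4435 CPM in GV. Its IVM MII libraries held 666 and 817 CPM and its IVO MII libraries 967 and 1111. Unlike NLRP5 and TLE6, OOEP had its lowest libraries in IVM MII. It fell 5.19-fold in IVM MII (-2.38 ± 0.28, edgeR adjusted p = 6.09e-05) and 3.70-fold in IVO MII (-1.89 ± 0.28, edgeR adjusted p = 1.51e-04). With the trend of fold changes with gene length removed, the second value was -1.18 and still called (edgeR adjusted p = 0.00242). Both IVM MII libraries were below both IVO MII libraries, but the difference did not pass the test (-0.49 ± 0.27, edgeR adjusted p = 0.208).

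KHDC3L (chromosome 4, 100562296 to 100564413, minus strand, 3 exons) stood at 1384 and 2121 CPM in GV, 1544 and 1756 in the IVM MII libraries, and 881 and 875 in IVO MII. Both IVM MII libraries lay inside the range of the GV libraries, and both IVO MII libraries lay below every other library. The log2 fold change between IVM MII and GV was -0.09 ± 0.27 (edgeR adjusted p = 0.805), and its sign turned with library totals (0.21) and with the gene length trend removed (0.30). In IVO MII KHDC3L fell 2.00-fold (-0.997 ± 0.27, edgeR adjusted p = 0.00821). That call ended without GV replicate 2 (-0.65, edgeR adjusted p = 0.124) and with the gene length trend removed (-0.39, edgeR adjusted p = 0.228).

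PADI6, the lattice protein (chromosome 1, 211095213 to 211124906, minus strand, 16 exons), stood at 544 and 1180 CPM in GV, 180 and 171 in the IVM MII libraries, and 161 and 111 in IVO MII. GV was above both MII groups in every library, and both IVM MII libraries lay just above the higher IVO MII library. It fell 4.90-fold in IVM MII (-2.29 ± 0.35, edgeR adjusted p = 2.95e-04) and 6.35-fold in IVO MII (-2.67 ± 0.35, edgeR adjusted p = 7.39e-05). Without GV replicate 2, the library with its highest level, these values were -1.63 and -2.00, and both calls held. The 2 MII groups differed by 0.37 ± 0.33 on the log2 scale, IVM MII over IVO MII, which did not pass (edgeR adjusted p = 0.440).

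ZBED3 (chromosome 6, 75258423 to 75271475, minus strand, 3 exons) stood at 9.09 and 6.43 CPM in GV, 7.89 and 5.80 in the IVM MII libraries, and 14.8 and 12.9 in IVO MII. GV and IVM MII overlapped, with a log2 fold change of -0.18 ± 0.29 (edgeR adjusted p = 0.628) whose sign turned with library totals (0.13). IVO MII was above both. ZBED3 rose 1.79-fold from GV to IVO MII (0.84 ± 0.29, edgeR adjusted p = 0.0261). This call ended without GV replicate 2 (0.61, edgeR adjusted p = 0.206) or without IVO MII replicate 1 (0.75, edgeR adjusted p = 0.0837). ZBED3 was the single member whose exons overlapped those of another gene: in the annotation 194 bases of its exons overlap exons of LOC107130016 on the other strand. The counting used no strand option and no option to count fragments over more than 1 gene; that gene held 2 to 5 counts per library.

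**Figure D2:**
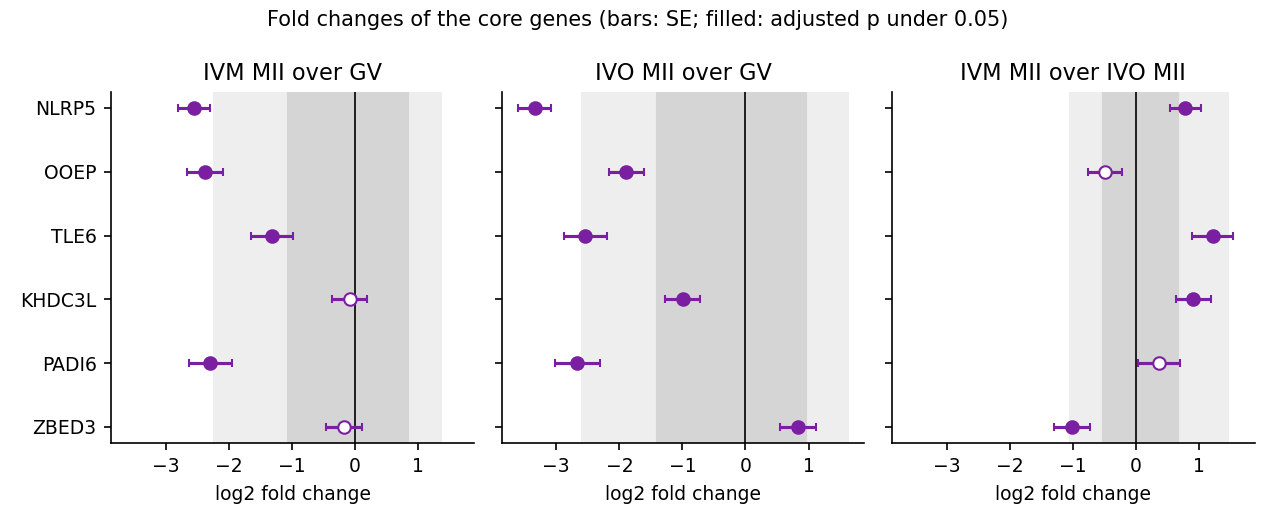
Log2 fold change of each core gene in the 3 comparisons, with its standard error; filled points have an adjusted p under 0.05, and grey bands span the 10th to 90th and 25th to 75th percentiles of all tested genes. NLRP5 and PADI6 lie below the wider band in both comparisons with GV, and OOEP in that of IVM MII. KHDC3L moves from -0.09 in IVM MII to -0.997 in IVO MII.

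For maturation in vitro, 4 of the 6 members fell and 0 rose, where 24.7% of all tested genes fell and 25.6% rose. The median log2 fold change was -1.81 over the members and 0.06 over all tested genes. For maturation in vivo 5 fell and 1 rose, where 30.5% of all tested genes fell and 28.1% rose, and the medians were -2.21 and -0.07. The 2 comparisons share the GV libraries, so they are not independent of each other. For each called member the GV and MII libraries also did not overlap, 4 downward and 0 upward in IVM MII, where 37.4% of the tested genes separated downward and 40.4% upward. In IVO MII 5 members separated downward and 1 upward, where the shares of the tested genes were 42.1% and 38.2%. Because priming used the poly(A) tail and levels are shares of a library, less RNA of a gene per oocyte, shorter tails and fewer oocytes among other cells cannot be told apart.

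Set directly against each other, the 2 kinds of mature oocyte show whether core transcripts end at other levels in culture than in the animal. NLRP5, TLE6 and KHDC3L were higher in IVM MII and ZBED3 was lower, 3 and 1 of 6, where 14.3% of the tested genes were higher and 10.3% lower. TLE6 stood at 83.2 ± 36.9 CPM in the IVM MII libraries against 35.7 ± 2.35 in the IVO MII ones (2.33-fold, log2 fold change 1.22 ± 0.33, edgeR adjusted p = 0.0189). KHDC3L stood at 1650 ± 150 and 878 ± 3.96 CPM (1.88-fold, 0.91 ± 0.27, edgeR adjusted p = 0.0312). NLRP5 was 1.72-fold higher (0.78 ± 0.24, edgeR adjusted p = 0.0356), and ZBED3 was 2.02-fold lower in IVM MII (-1.01 ± 0.29, edgeR adjusted p = 0.0244). The libraries of the 2 groups did not overlap for any of the 6 members: 4 were higher in both IVM MII libraries, as were 33.1% of tested genes, and 2 were lower, as were 29.9%.

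Each of these 4 calls ended when certain libraries were left out, although every direction was kept. That of NLRP5 ended without IVM MII replicate 1 (0.83, edgeR adjusted p = 0.0943), IVM MII replicate 2 (0.78, edgeR adjusted p = 0.126) or IVO MII replicate 1 (0.57, edgeR adjusted p = 0.221). That of TLE6 ended without IVM MII replicate 1 (0.70, edgeR adjusted p = 0.178) or IVO MII replicate 1 (1.16, edgeR adjusted p = 0.0893). KHDC3L lost its call without IVM MII replicate 2 (0.82, edgeR adjusted p = 0.116), IVO MII replicate 1 (0.92, edgeR adjusted p = 0.109) or IVO MII replicate 2 (0.92, edgeR adjusted p = 0.102), and with the gene length trend removed (0.69, edgeR adjusted p = 0.0769). ZBED3 lost its call without IVM MII replicate 2 (-0.81, edgeR adjusted p = 0.155) or IVO MII replicate 1 (-0.91, edgeR adjusted p = 0.0794), and with library totals (-0.78, edgeR adjusted p = 0.106). Without IVO MII replicate 1, 0 of the 6 members were called. Scaling by library totals shifted the median of all genes from 0.02 to 0.24 on the log2 scale in this comparison and from 0.06 to 0.35 between IVM MII and GV. It gave 2803 genes higher and 894 lower in IVM MII than in IVO MII, in place of 2260 and 1635.

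Levels of different members were compared per kilobase of exon (RPKM, on the same scaled counts). In GV oocytes OOEP led with 2806 ± 604 RPKM, followed by KHDC3L with 1058 ± 315, PADI6 with 363 ± 189, NLRP5 with 206 ± 40.2, TLE6 with 101 ± 37.9 and ZBED3 with 1.78 ± 0.43. This order held in both GV and both IVO MII libraries. The ranges of PADI6 and NLRP5 overlapped in GV, and those of NLRP5 and TLE6 in IVO MII, where the first library's NLRP5, at 17.0 RPKM, lay below the second library's TLE6, at 18.3. In IVM MII the order of NLRP5 and TLE6 differed between the libraries, at 34.6 and 53.4 RPKM in the first and 35.3 and 27.9 in the second. By place among all 15815 tested genes, OOEP ranked 44th and 35th in the GV libraries and ZBED3 8213th and 9174th. NLRP5 went from places 468 and 365 in GV to 1787 and 1826 in IVM MII oocytes and 2974 and 2410 in IVO MII oocytes. Bowtie2 aligns without splicing, and fragments that cross exon junctions may be missing. Mean exon length was 120 bases for TLE6, 149 for PADI6 and 246 for NLRP5, against 457 for OOEP, 552 for KHDC3L and 1454 for ZBED3, and the part of this in the order was not tested.

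In IVM MII oocytes KHDC3L stood first, with 996 ± 90.5 RPKM against 541 ± 77.5 for OOEP. It ranked 44th and 52nd among all tested genes there, against 104th and 70th in GV and 123rd and 113th in IVO MII. The ratio of KHDC3L to OOEP was 0.351 and 0.396 in GV oocytes, 1.92 and 1.78 in IVM MII oocytes, and 0.754 and 0.652 in IVO MII oocytes. The 3 groups thus had separate ranges of this ratio; with 2 libraries against 2 an exact two-sided permutation test cannot give a p below 0.333, which was its value for each pair of groups. The ratio does not depend on the scaling of a library. KHDC3L made up 22.6% and 23.8% of the members' summed RPKM in GV oocytes, 58.8% and 59.2% in IVM MII oocytes, and 39.6% and 37.0% in IVO MII oocytes. OOEP made up 64.3% and 60.2% in GV, 30.7% and 33.2% in the IVM MII libraries, and 52.6% and 56.7% in the IVO MII libraries.

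**Figure D3:**
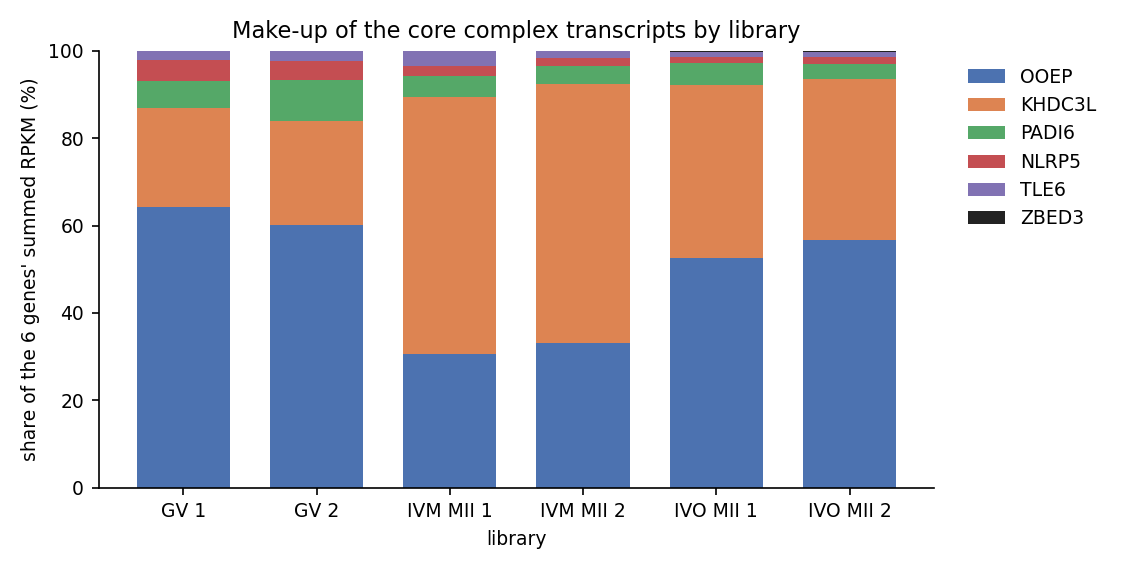
Share of each core gene in the summed RPKM of the 6 genes, in percent, for each of the 6 libraries. OOEP holds the largest share in the GV and IVO MII libraries, and KHDC3L, with 58.8% and 59.2%, in both IVM MII libraries; ZBED3 is at most 0.253%.

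The ratio of OOEP to NLRP5 was highest in IVO MII, at 41.5 and 34.4, against 13.4 and 13.8 in GV and 14.0 and 16.9 in the IVM MII libraries. PADI6 and NLRP5 had a ratio of 1.29 and 2.12 in GV, 2.19 and 2.04 in the IVM MII libraries, and 3.98 and 1.98 in the IVO MII libraries, and the 3 ranges overlapped. TLE6 over NLRP5 was 0.421 and 0.548 in GV, 1.54 and 0.791 in the IVM MII libraries, and 0.979 and 0.776 in the IVO MII libraries. Both MII groups were above GV for this ratio and overlapped each other.

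Likeness of pattern was measured as the root mean square difference of log2 CPM over the 6 libraries, after each gene's own mean was subtracted; smaller means more alike. Among the 15 pairs of members the most alike were NLRP5 and PADI6 (0.474), OOEP and PADI6 (0.492) and TLE6 and PADI6 (0.502). The least alike were NLRP5 and ZBED3 (1.75). KHDC3L was nearer to TLE6 (0.745) than to OOEP (0.953), its neighbour in the genome. These values describe 6 libraries that all genes share.

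Among 6016 other genes with a symbol and a mean of at least 10 CPM, those nearest to NLRP5 were NDUFB2 (0.10), a subunit of respiratory complex I, FAU (0.112), which encodes a ribosomal protein fused to a ubiquitin-like one, and NDUFS6 (0.140). NDUFB2 stood at 460 CPM in GV, 77.8 in the IVM MII libraries and 41.9 in the IVO MII libraries, beside 505, 85.9 and 49.8 for NLRP5. Nearest to OOEP were NDUFA8 (0.0764), also of complex I, C11H12orf56 (0.0840) and MIF (0.0907), a cytokine. CARKD (0.121), HMOX2 (0.177), a haem oxygenase, and KIAA1191 (0.187) were nearest to TLE6. CBR4 (0.120), a carbonyl reductase, MINOS1 (0.131), of the mitochondrial inner membrane, and STK19 (0.131) were nearest to KHDC3L. Nearest to PADI6 were WWOX, an oxidoreductase, at 0.157, RFC2, a subunit of the clamp loader, at 0.225, and ZNF593 at 0.231. ZBED3 was nearest to BLOC1S3 (0.101), TIAM1 (0.116), an activator of RAC, and TICRR (0.141), a replication factor. Within 0.25 of a member lay 36 genes for NLRP5, 33 for OOEP, 8 for TLE6, 78 for KHDC3L, 3 for PADI6 and 61 for ZBED3.

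OOEP and KHDC3L lie 4348 bases apart on opposite strands, in a cluster that also holds their relatives DPPA5 and KHDC1. DPPA5, a KH-domain gene of germ and pluripotent cells 9732 bases beyond KHDC3L, stood at 625 and 944 CPM in GV, 210 and 252 in the IVM MII libraries, and 174 and 136 in the IVO MII libraries. It fell 3.40-fold in IVM MII (-1.76 ± 0.27, edgeR adjusted p = 3.21e-04) and 5.06-fold in IVO MII (-2.34 ± 0.28, edgeR adjusted p = 3.62e-05). With the gene length trend removed these values were -1.17 and -1.43, both called. KHDC3L lies between OOEP and DPPA5, which both fell by both routes. KHDC1, at means of 2.65 CPM in GV and 5.89 and 5.99 in the MII groups, was called higher by both routes (1.15 and 1.18), calls that ended without either GV library (1.18 and 1.13 in IVM MII, 1.20 and 1.15 in IVO MII), without IVM MII replicate 2 (0.91) or without IVO MII replicate 1 (0.77), and the second of which was 1.79 with the gene length trend removed. DDX43, an RNA helicase gene on the other side of OOEP, rose in IVO MII (1.51 ± 0.22, edgeR adjusted p = 1.29e-04). Its rise in IVM MII (0.62) was not called without either GV library (0.65 and 0.60), without either IVM MII library (0.58 and 0.71) or in the 4 compared libraries alone (0.53).

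**Figure D4:**
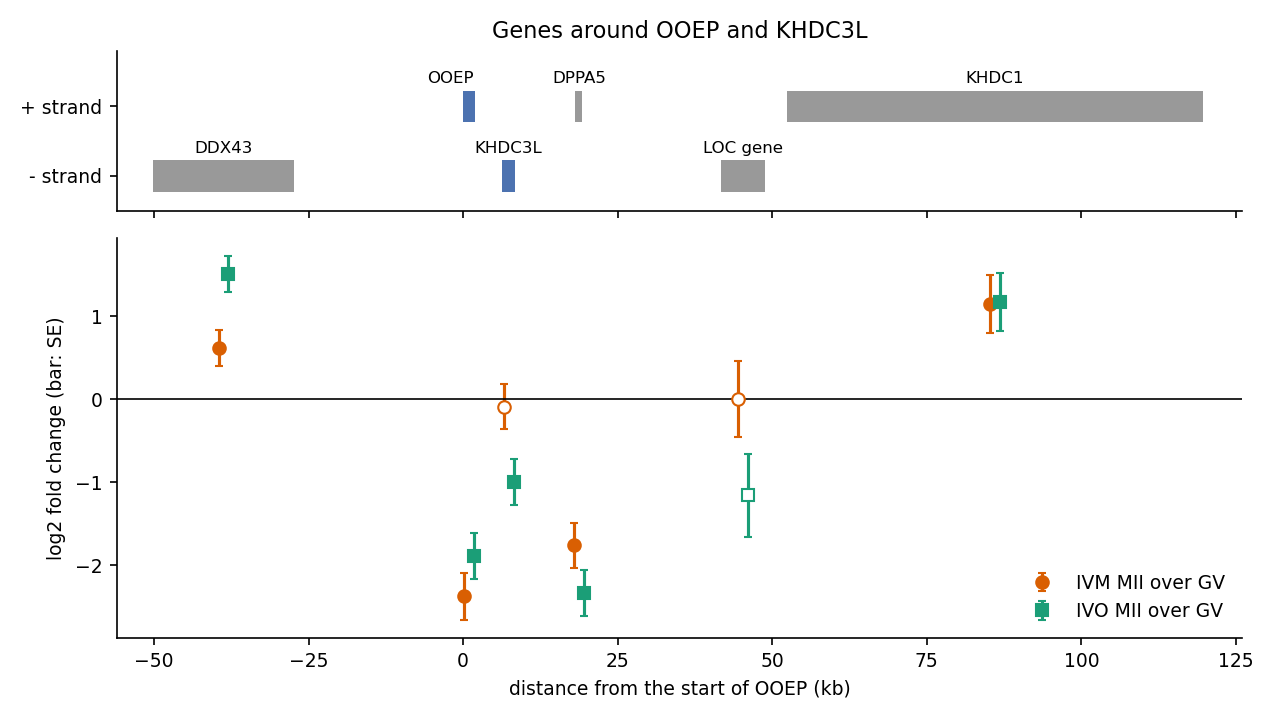
Upper panel, genes around OOEP and KHDC3L by strand, core genes in blue, against the distance from the start of OOEP in kilobases; lower panel, log2 fold change of each gene from GV with its standard error, filled where the adjusted p is under 0.05. OOEP and DPPA5 are below -1.7 in both MII groups, KHDC3L between them is at -0.09 and -0.997, and DDX43 and KHDC1 are above 0; the gene labelled LOC passed the test in neither.

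The genes next to the other members did not share 1 direction. NLRP8, 30076 bases below NLRP5, was called in neither comparison with GV (-0.55 and -0.74), and ZNF787 on the other side had at most 1 count per library. For NLRP8, the fall in IVO MII was called under DESeq2, without the low-count filter and with a block for the replicate number. Its fall in IVM MII was called in the 4 compared libraries alone. TLE2, a co-repressor gene 2165 bases beyond TLE6 on the other strand, fell from a mean of 12.8 CPM in GV to 2.29 in IVM MII (-2.46 ± 0.38, edgeR adjusted p = 3.44e-04; -3.15 without IVM MII replicate 1) and to 4.33 in IVO MII (-1.56 ± 0.37, edgeR adjusted p = 0.00345). ZNF77, a zinc finger gene on the other side of TLE6, fell by both routes (-2.97 and -2.48). RCC2, a gene for a chromatin-bound protein 4811 bases from PADI6, rose by both (1.25 and 2.11), and PADI4 on its other side was not called. PDE8B, a phosphodiesterase gene 196271 bases beyond ZBED3, was called in neither comparison with GV (-0.56 and 0.30) and was lower in IVM MII than in IVO MII (-0.86 ± 0.23, edgeR adjusted p = 0.0200). That call ended without IVM MII replicate 1 (-0.67), without IVO MII replicate 1 (-0.73) or with library totals (-0.65). AGGF1, 8388 bases from ZBED3 on the other side, was called higher by both routes (0.63 and 0.85). In IVM MII this call ended without GV replicate 2 (0.49), IVM MII replicate 1 (0.62) or IVM MII replicate 2 (0.69), with the gene length trend removed (0.48) and in the 4 compared libraries alone (0.54), and in IVO MII it ended without GV replicate 2 (0.71).

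The relatives of the members were described by lists, with no test of a list as a whole. Over all tested genes, the shares called higher and lower were 25.6% and 24.7% in IVM MII, 28.1% and 30.5% in IVO MII, and 14.3% and 10.3% between the MII groups. Of 13 other NLRP genes, 10 were tested. Of these, 1 rose and 1 fell in IVM MII and 1 rose and 4 fell in IVO MII. The median log2 fold changes were -0.43 and -0.53. Among the falls in IVO MII, that of NLRP11 (-0.75) lost its call without either GV library (-0.81 and -0.68) or IVO MII replicate 1 (-0.51). The single rises were NLRP3 and NLRP1; the first call ended without GV replicate 1 (0.99) or either IVM MII library (1.15 and 1.53) and with the gene length trend removed (1.19), the second without either GV library (1.18 and 1.49). Without IVM MII replicate 1, 2 NLRP genes in place of 1 were called lower than in GV. Between the MII groups 3 were higher and 2 lower in IVM MII, with a median of 0.19. NLRP3 (1.65) lost its call without either IVM MII library (1.46 and 1.84) or IVO MII replicate 1 (1.21). NLRP1 (-1.97) lost its call without IVM MII replicate 2 (-1.48), and NLRP4 (-0.91) when any 1 library other than IVM MII replicate 1 was left out (-0.94 to -0.66), with library totals (-0.67) or in the 4 compared libraries alone (-0.87), so that 0 were lower without IVM MII replicate 2. NLRP2 and NLRP7, NLR genes of the oocyte, had the same set of calls as KHDC3L. NLRP2 stood at 804 and 768 CPM in GV, 720 and 734 in the IVM MII libraries, and 208 and 282 in the IVO MII libraries. NLRP7 stood at 298 and 276 CPM, then 303 and 270, then 64.5 and 111 in the same order. Neither was called between IVM MII and GV (-0.11 ± 0.24 and 0.00 ± 0.26), where NLRP7 overlapped. Both were higher in IVM MII than in IVO MII, by 1.57 ± 0.24 and 1.71 ± 0.27 (edgeR adjusted p = 9.57e-04 and 0.00110), calls that held under each of the 14 alternatives run. NLR genes are near copies in part, so the authors' counting could have split fragments between them and NLRP5, which was not tested.

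Among the other peptidylarginine deiminases PADI2 and PADI4 had enough counts to test. PADI4 stood at 3.74, 3.12 and 3.00 CPM in GV, IVM and IVO MII oocytes, beside 862, 176 and 136 for PADI6. PADI2 was called lower by both routes on 21 and 31 counts in GV and 0 to 4 in each MII library, at or near the floor, and both calls ended without GV replicate 2 (edgeR adjusted p = 0.0632 and 0.0835). Of the relatives of TLE6, TLE1 was called higher in IVM MII (1.01 ± 0.30, edgeR adjusted p = 0.0149), but not without GV replicate 1 (0.78) or IVM MII replicate 1 (0.90). Of 4 tested BED zinc finger genes other than ZBED3, ZBED9 rose 3.02-fold and 3.45-fold in the 2 MII groups, and ZBED5 was not called. ZBED4 rose 3.26-fold in IVO MII; its call in IVM MII (0.93) ended without GV replicate 2 (0.82), without IVM MII replicate 2 (0.85) or with the gene length trend removed (0.66). ZBED1, at 4.95, 23.7 and 1.31 CPM, rose in IVM MII (2.26 ± 0.38) and fell in IVO MII (-1.93 ± 0.41), while ZBED3 was not called in the first and rose in the second.

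**Figure D5:**
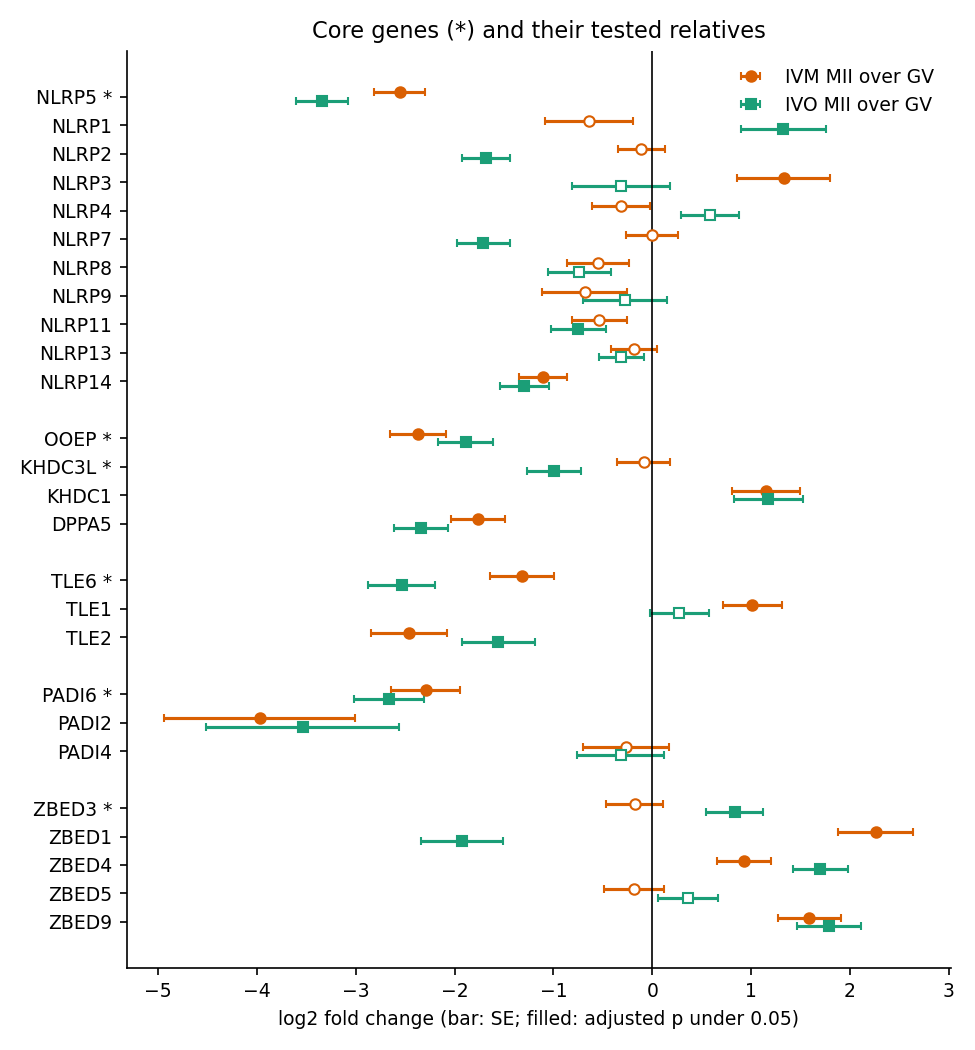
Log2 fold change from GV of each core gene, marked with an asterisk, and of its tested relatives, with standard errors; circles are IVM MII and squares IVO MII, and filled points have an adjusted p under 0.05. NLRP2 and NLRP7 show near 0 in IVM MII and about -1.7 in IVO MII, and NLRP5 lies below the other NLRP genes in both.

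A list of 20 genes tied to the complex, its lattices or its partners held 19 tested genes. In IVM MII 6 rose and 3 fell, with a median log2 fold change of -0.11. In IVO MII 6 rose and 7 fell, with a median of 0.02. Of all tested genes, 25.6% rose and 24.7% fell in IVM MII, and 28.1% rose and 30.5% fell in IVO MII. Leaving out 1 library at a time left 4 to 6 rises and 2 to 3 falls in IVM MII, and 4 to 6 rises and 6 to 7 falls in IVO MII. PRKACB, a catalytic subunit of protein kinase A, rose 5.05-fold and 5.26-fold, while YBX2, a germ cell RNA-binding protein, fell 7.49-fold and 5.04-fold (-2.33 on the log2 scale for the second, and -1.72 with the gene length trend removed). CFL2, an actin-severing cofilin, was higher in IVM MII than in IVO MII (1.06 ± 0.24, edgeR adjusted p = 0.00883), but not called without IVM MII replicate 2 (0.85, edgeR adjusted p = 0.0810). Among the oocyte transcription factors, which drive genes of the growing oocyte, 6 of 7 were tested and 4 fell by each route, among them FIGLA, by 9.43-fold and 16.8-fold (-4.06 on the log2 scale for the second, and -3.15 with the gene length trend removed). Of these falls 2 were called in IVM MII without IVM MII replicate 2, where LHX8 (-0.94) and NOBOX (-0.95) lost their calls, and NOBOX in IVO MII (-0.92) was not called when any 1 of the GV or IVO MII libraries was left out (-0.94 to -0.88). LHX8 in IVM MII (-0.91) also lost its call without GV replicate 2 (-0.58) or IVM MII replicate 1 (-0.84), with library totals (-0.62) and with the gene length trend removed (-0.55). The single rises were different genes, SOHLH2 in IVM MII (1.60) and TAF4B in IVO MII (1.33). Of 26 other tested oocyte and maternal effect genes, 6 rose and 7 fell in IVM MII, and 9 rose and 12 fell in IVO MII. The rises were 3 in IVM MII without GV replicate 1 or IVM MII replicate 1, and 5 in IVO MII without either GV library. Between the MII groups 8 of the 26 were higher and 1 lower in IVM MII, beside 14.3% and 10.3% of all tested genes. Among these, the calls of ZP2, ZP3, ZP4, GDF9, ZAR1L and PATL2 ended when certain single libraries were left out. The medians of this last list were -0.22 and -0.14, and -0.02 for IVM MII over IVO MII, beside -1.81, -2.21 and 0.58 for the 6 core genes.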

How the data were processed

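The deposited table holds raw counts per gene, with exon lengths in bases. Per the file headers, the authors made the counts with featureCounts 2.0.1, from paired fragments over the exons of each macFas5 RefSeq gene; no strand option was set. Per the submitters' processing notes, fastp, FastQC, Bowtie2 and SAMtools were also used. Per the labels' protocols, cDNA was primed on poly(A) tails, amplified by a template-switching method, tagmented and sequenced as paired reads.

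From these counts edgeR 4.0.16 in R 4.3.3 filtered genes with filterByExpr (15815 kept, 12349 left out), computed TMM factors, which run from 0.903 to 1.22, and fitted its robust quasi-likelihood test to all 6 libraries with 3 group terms and 3 residual degrees of freedom; tests were two-sided. The standard error of a log2 fold change is its size divided by the root of the F statistic. Fold changes in words are ratios of mean CPM. Of 11294 LOC identifiers, 721 took a symbol by gene number from a RefSeq table of the T2T-MFA8v1.1 assembly, used for names only. Likeness used log2(CPM + 0.1) over genes of at least 10 CPM.

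The members and lists were chosen with earlier results of these data known. Genes named were the 6 members, their nearest neighbours and overlapping genes, all tested relatives in families of 8 or fewer, the 3 nearest genes by pattern, and up to 3 genes per direction of other lists at 10 CPM or more. Alternatives were DESeq2 1.42.0, RLE factors, scaling by library totals, testing without a filter, fitting only the 4 libraries compared, a block for the replicate number, leaving out each library and an offset for the gene length trend. The procedure was tested on simulated data. Figures were drawn with matplotlib 3.10.9. The floor of 3 counts covers counting error only.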

Additional observations from a re-analysis of the deposited data

Results flagged for a closer look

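For 4 of the 6 core genes the change from GV oocytes differed between maturation in vitro and in vivo by the test of that difference, which is the edgeR comparison of IVM MII with IVO MII. The log2 change in culture minus that in the animal was 0.78 for NLRP5, 1.22 for TLE6, 0.91 for KHDC3L and -1.01 for ZBED3. In the same comparison 14.3% of all tested genes were called higher and 10.3% lower in IVM MII. Each of the 4 member calls ended when certain single libraries were left out, although its direction was kept. With 2 libraries per group, outlying libraries within a group could not be looked for.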

How the results depend on the processing

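Of 252 member fold changes under the alternatives, 227 kept direction and side of the threshold, 18 lost their call and 7 changed sign; the cause was not tested. Under DESeq2, RLE factors, no filter, the 4 compared libraries alone and both blocks, all 18 member fold changes kept direction and call. With library totals, IVM MII over GV was 0.21 for KHDC3L and 0.13 for ZBED3, both uncalled, and IVM MII over IVO MII was -0.78 for ZBED3, so that 0 members were called lower there; 894 genes were, and 75.8% of all calls were higher against 58.0% (63.7% against 50.9% for IVM MII over GV). For IVM MII over IVO MII that share was 49.6% with DESeq2, 51.6% with RLE factors and 48.8% with the gene length trend removed, and for IVO MII over GV the last took it from 48.0% to 53.4%. With the gene length trend removed, KHDC3L was 0.30 for IVM MII over GV, -0.39 for IVO MII over GV and 0.69 for IVM MII over IVO MII.

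Leaving out 1 library at a time, IVM MII over GV ranged from -1.82 to -0.87 for TLE6, from -0.36 to 0.26 for KHDC3L and from -0.40 to 0.10 for ZBED3, KHDC3L also being 0.04 without IVM MII replicate 1 and ZBED3 0.04 without IVM MII replicate 2. IVO MII over GV ranged from -1.27 to -0.65 for KHDC3L and from 0.61 to 1.11 for ZBED3, with 0 to 1 members called higher. IVM MII over IVO MII ranged from 0.57 to 1.05 for NLRP5, 0.70 to 1.62 for TLE6, 0.82 to 1.03 for KHDC3L and -1.23 to -0.81 for ZBED3, with 0 to 3 members called higher and 0 to 1 lower. Genes called higher ranged from 2580 to 4452 for IVM MII over GV, and 1327 to 2094 were called higher and 753 to 1496 lower for IVM MII over IVO MII. With 1 library left in a group, that library was assumed to vary like the other groups.

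The labels name no link between libraries of the same replicate number. Deviations of same-numbered libraries correlated at -0.144 for GV and IVM MII, 0.178 for GV and IVO MII and -0.114 for IVM MII and IVO MII. With 2 libraries per group these values cannot show whether the libraries were paired. The replicate block gave 2180 genes higher and 1545 lower for IVM MII over IVO MII. A block with the IVM MII numbers crossed, added after seeing the data, gave 2845 and 2466.

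Each member held at least 190 counts per library; 2 libraries per group limit every spread given.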
